A study of Mus musculus with 9 samples.

Results

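B16 mouse melanoma cells treated with blebbistatin for 72 h were compared with untreated, unstrained cells of the same line by RNA sequencing. The comparison used 6 of the 9 libraries of the series, 3 from the blebbistatin group (Blebb) and 3 from the control group (CTL). It covered 10109 of 22972 gene names, those that averaged 1 FPKM or more across the 9 libraries. FPKM counts the sequenced fragments of a gene relative to gene length and library size, and therefore allows levels of different genes to be set side by side.

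B16 is an established line of mouse melanoma cells, and all groups carry the label WT for genotype. The cells grew on a flexible film of polydimethylsiloxane (PDMS), and RNA was taken on day 3. CTL cells were labelled control, Blebb cells received blebbistatin at 100 ng/mL, and the third group (MS) was cyclically strained for 72 h. The labels of the Blebb libraries name blebbistatin and no straining, whereas the study's methods describe straining of cells in medium that held the inhibitor. The effect of the inhibitor and that of straining with the inhibitor cannot be told apart if the cells were strained. No vehicle is named for the CTL cells in the labels. The labels number the libraries of a group as parallel experiments and do not name separate cultures, so the spread between replicates may be technical.

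Blebbistatin blocks the motor activity of non-muscle myosin II, the protein that pulls on actin filaments and puts tension on focal adhesions. That tension is one of the signals that place YAP and TAZ, the co-activators of the Hippo pathway, in the nucleus, and that free MRTF to drive SRF target genes. Blebbistatin acts on the protein, so no transcript level checks whether the treatment worked. Melanoma cells make pigment from tyrosine under control of MITF and SOX10, and their growth is often driven by RAS, RAF, MEK and ERK.

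Most markers of the line were present in all 6 libraries, and 17 of 19 genes on the melanocyte list passed the minimum. The exceptions were Ednrb, at 0 in every library, and Kit, at most at 0.0872 FPKM. The melanocyte list reached a summed level of 11431 to 17125 FPKM in CTL and Blebb, and Sox10, which specifies the lineage, had a mean of 271 FPKM in CTL and 270 FPKM in Blebb. Markers of other cell types were near 0. Fibroblast markers summed to between 0.896 and 1.23 FPKM in these 6 libraries, keratinocyte markers to at most 0.0314 FPKM, endothelial markers to at most 0.0615 FPKM and macrophage markers to between 2.1 and 3.47 FPKM. Of these markers of other cell types, only Cd68, a lysosomal protein, passed the minimum. It was at 2.5, 2.07 and 1.88 FPKM in Blebb against 2.09, 1.55 and 1.87 FPKM in CTL.

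Libraries of each group stood apart from their own replicates. The median correlation across genes was 0.966 between libraries of the same group and 0.982 between CTL and Blebb libraries. CTL 1 and Blebb 2 lay at -42.1 and -43.9 on the first principal component, while CTL 2, CTL 3, Blebb 1 and Blebb 3 lay at 13.4, 23.6, -7.3 and 24.4. The levels of proliferation and stress genes separated the same libraries. Genes of DNA replication and S phase summed to 705 FPKM in CTL 1 and 713 FPKM in Blebb 2, and to between 1677 and 1812 FPKM in the other 4. In contrast, genes of the integrated stress response and amino acid supply summed to 3896 FPKM in CTL 1 and 3856 FPKM in Blebb 2, against 1955 to 2688 FPKM in the other 4. The correlation across genes of each library's deviation with GC content also differed, at 0.45, -0.18 and -0.42 in CTL and 0.55, 0.54 and -0.54 in Blebb. Each group therefore held 1 library with low replication genes, and values without CTL 1, Blebb 2 or both are given beside several results. Of the 21 gene lists described, 15 took medians of both signs when 1 library at a time was left out, and only those of cholesterol, integrins, the Hippo core, the RAS pathway, ERK output and matrix kept 1 sign.

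**Figure D1:**
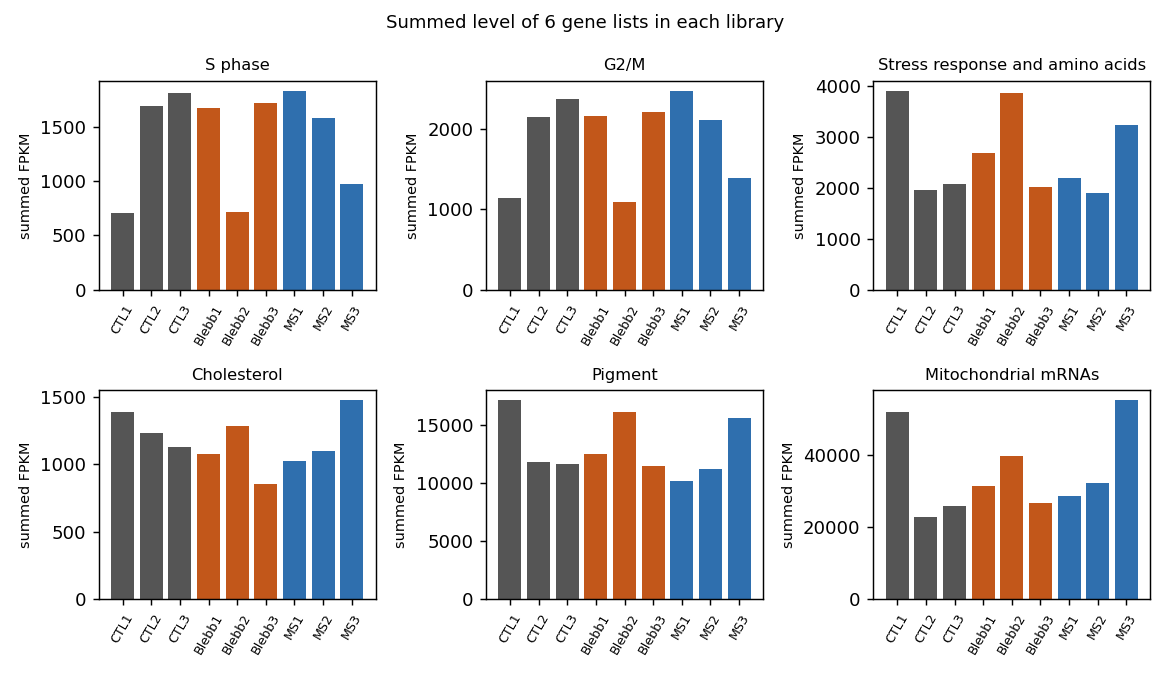
Summed level in FPKM (vertical axes, from 0) of 6 gene lists in each of the 9 libraries (horizontal axes), with CTL in grey, Blebb in orange and MS in blue. CTL 1 and Blebb 2 have the lowest S phase sums of their groups, at 705 and 713 FPKM, and the highest stress response sums, at 3896 and 3856 FPKM.

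No gene passed the test between Blebb and CTL. In limma with Benjamini-Hochberg adjustment, 0 of 10109 genes (percent called 0) had an adjusted p under 0.05, and the smallest adjusted p was 1.00. At an unadjusted p under 0.05, 8 genes were higher in Blebb (0.0791% of the genes tested) and 1 was lower (0.00989%). Both shares were below what a test at 0.05 calls on average where no gene differs. The lack of calls therefore does not show that the groups were alike. Differences were small in most genes: 99.6% lay within 0.5 on the log2 scale, the median size was 0.08 and the median standard error was 0.20. In 44 genes the log2 fold change was at least 0.5 in size, with 19 higher and 25 lower in Blebb. Only 3 genes reached 1, namely Ccl5 and the gene models Gm49909 and Gm20390, and the last 2 were listed at 0 in most libraries. Counting genes whose groups did not overlap, 94 had all Blebb libraries above all CTL libraries (0.93%) and 116 had all of them below (1.15%). For 3 against 3 libraries an exact test gives p = 0.1 at the smallest, so lack of overlap in a gene is a description only. In each direction, libraries without a group difference would on average give a larger share of genes without overlap than was seen here. All 9 genes with an unadjusted p under 0.05 were among those that did not overlap. Without CTL 1 and Blebb 2, the counts of genes without overlap were 525 higher (5.19%) and 1204 lower (11.9%). Smaller groups overlap less often, and the counts also varied with the library left out. They were 158 (1.56%) and 188 (1.86%) without Blebb 1 alone and 758 (7.5%) and 989 (9.78%) without Blebb 3 alone. The smaller groups and the choice of libraries cannot be told apart in the counts without CTL 1 and Blebb 2.

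**Figure D2:**
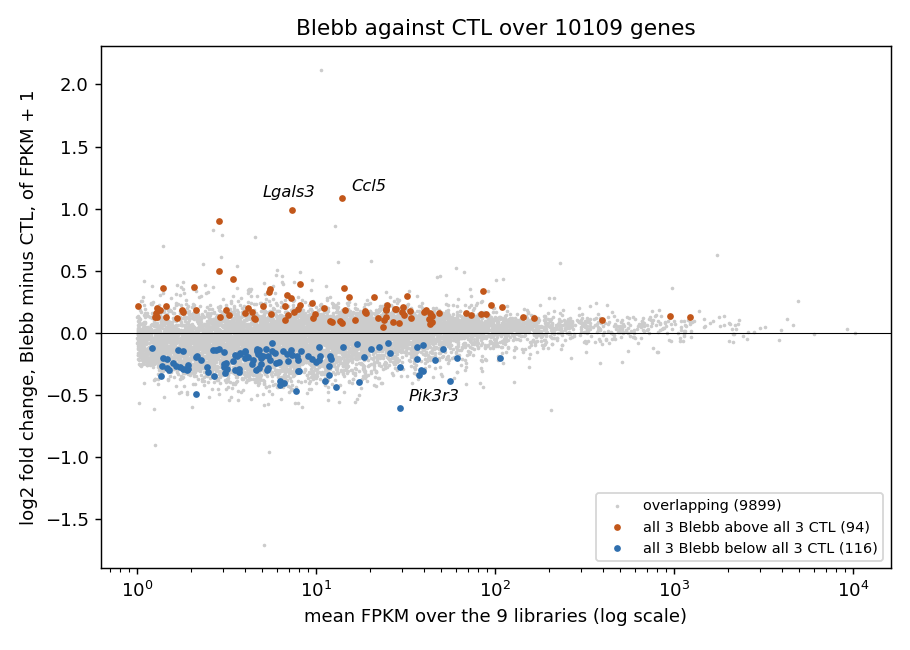
Log2 fold change of FPKM + 1 between Blebb and CTL (vertical axis) against mean FPKM over the 9 libraries (horizontal axis, log scale), with 1 point for each of 10109 genes. The 94 genes with all Blebb libraries above CTL are orange and the 116 with all below are blue, and Ccl5 is the highest orange point at 1.09.

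The gene that stood out most was Ccl5 (chr11:83525778-83530518, minus strand, GRCm38), which encodes a chemokine that attracts T cells and monocytes. It was at 26.8, 24.0 and 19.0 FPKM in Blebb and at 11.1, 8.83 and 11.2 FPKM in CTL. Every Blebb library was above every CTL library, and the MS libraries, at 8.8, 9.45 and 6.37 FPKM, were within or below the CTL range. The mean was 23.2 ± 3.96 FPKM in Blebb and 10.4 ± 1.34 FPKM in CTL (SD, n = 3), a ratio of 2.24. On the log2(FPKM + 1) scale the difference was 1.09 with a standard error of 0.19, and it did not pass the test in limma (adjusted p = 1.00). It was as large between the libraries that stood apart, at 1.05 for Blebb 2 against CTL 1, and it was 1.10 without them. Against MS the difference was 1.40, also without passing the test (limma, adjusted p = 0.375). Macrophages can also make this chemokine, and their summed markers were at 3.47, 2.81 and 2.74 FPKM in Blebb and 2.5, 2.1 and 3.19 FPKM in CTL, with overlap. Whether such cells added to the Ccl5 level was not tested.

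Lgals3 (chr14:47367751-47386160, plus strand), which encodes galectin-3, a lectin that binds sugars on the cell surface and in the cytoplasm, was also higher. Its level was 10.3, 10.9 and 10.3 FPKM in Blebb and 2.44, 6.36 and 6.61 FPKM in CTL. The groups did not overlap, and CTL 1 was the lowest of all 9 libraries. The log2 fold change of 0.99 (SE 0.34) came to 0.59 without CTL 1 and Blebb 2 and to 0.62 without CTL 1 alone, so its size rests in part on CTL 1. It did not pass the test (limma, adjusted p = 1.00).

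Genes of stress and survival control were among the other genes with an unadjusted p under 0.05. Cebpb, a transcription factor induced by stress and inflammatory signals, was at 16.4, 20.6 and 15.3 FPKM in Blebb and at 13.5, 13.1 and 13.2 FPKM in CTL. Blebb 2 was the highest library, CTL varied little, and the log2 fold change was 0.36 (SE 0.14). It came to 0.24 without Blebb 2 and to 0.25 without CTL 1 and Blebb 2. Bcl2l1, which encodes the anti-apoptotic protein BCL-XL, was at 40.7, 37.1 and 36.2 FPKM in Blebb, above 30.4, 30.9 and 30.9 FPKM in CTL and above all MS libraries, at 25.9, 31.5 and 25.2 FPKM. Its log2 fold change was 0.30 (SE 0.12) and stayed at 0.30 without CTL 1 and Blebb 2. Spr, encoding sepiapterin reductase, the last enzyme in the synthesis of tetrahydrobiopterin, was at 110, 106 and 88.1 FPKM in Blebb and at 73.4, 83.0 and 83.3 FPKM in CTL. That difference of 0.34 (SE 0.13) came to 0.24 without CTL 1 and Blebb 2. None of these passed the test over all genes (limma, adjusted p = 1.00 for each).

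Mrps17, a protein of the small subunit of the mitochondrial ribosome, was at 23.4, 23.8 and 25.5 FPKM in Blebb and at 19.0, 19.4 and 20.8 FPKM in CTL, a log2 fold change of 0.29 (SE 0.12). An unnamed locus with the assembler number MSTRG.16266 was at 2.58, 2.57 and 3.0 FPKM in Blebb against 1.92, 1.88 and 1.83 FPKM in CTL. Fam177a was at 5.92, 6.22 and 5.76 FPKM in Blebb and at 5.39, 4.21 and 3.86 FPKM in CTL. This value is uncertain, because Fam177a2, a gene name that reads as a copy and was looked up after the values were seen, went the other way, with 6.21, 6.58 and 6.11 FPKM in Blebb and 6.96, 7.22 and 8.57 FPKM in CTL. The sum of both was 12.1, 12.8 and 11.9 FPKM in Blebb and 12.4, 11.4 and 12.4 FPKM in CTL, and these sums overlapped. Among genes without overlap and at a mean of at least 5 FPKM, Dok7, Mplkip and Cd276 completed the 8 highest, with log2 fold changes of 0.39 (SE 0.22), 0.33 (SE 0.15) and 0.30 (SE 0.18). The value of Dok7 was 0.22 without CTL 1. Cd276 encodes the checkpoint protein B7-H3 and was at 7.9, 9.71 and 7.5 FPKM in Blebb and 6.95, 6.6 and 6.16 FPKM in CTL.

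Among genes without overlap, the largest differences below 0 included signalling proteins and a transcription factor of the SOX family. Pik3r3, a regulatory subunit of PI3 kinase, was at 12, 20.4 and 24.7 FPKM in Blebb and at 26.5, 27.5 and 31.2 FPKM in CTL. The MS libraries spread from 20.9 to 60.5 FPKM, wider than either group, and the log2 fold change between Blebb and CTL was -0.61 (SE 0.37). Enpp2, which encodes autotaxin, the enzyme that makes lysophosphatidic acid, was at 4.67, 7.05 and 6.19 FPKM in Blebb and 7.88, 8.89 and 8.88 FPKM in CTL, a log2 fold change of -0.47 (SE 0.23). Sox6, that transcription factor, was at 3.68, 4.98 and 5.48 FPKM against 6.0, 6.33 and 7.0 FPKM in CTL. Smad5, which carries BMP signals to the nucleus, was at 11.5, 13.9 and 17.6 FPKM against 19.4, 17.9 and 19.4 FPKM. Both had a log2 fold change of -0.39. Dstyk, a kinase, and Gjc3, a gap junction protein, stood at -0.44 (SE 0.23) and -0.42 (SE 0.28). In Pik3r3, Enpp2, Sox6, Smad5, Dstyk and Gjc3, Blebb 1 was the lowest library. Without it the log2 fold change was -0.32 in Pik3r3, -0.33 in Enpp2, -0.25 in Sox6, -0.26 in Smad5, -0.27 in Dstyk and -0.33 in Gjc3. All of these genes had an adjusted p of 1.00 in limma.

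**Figure D3:**
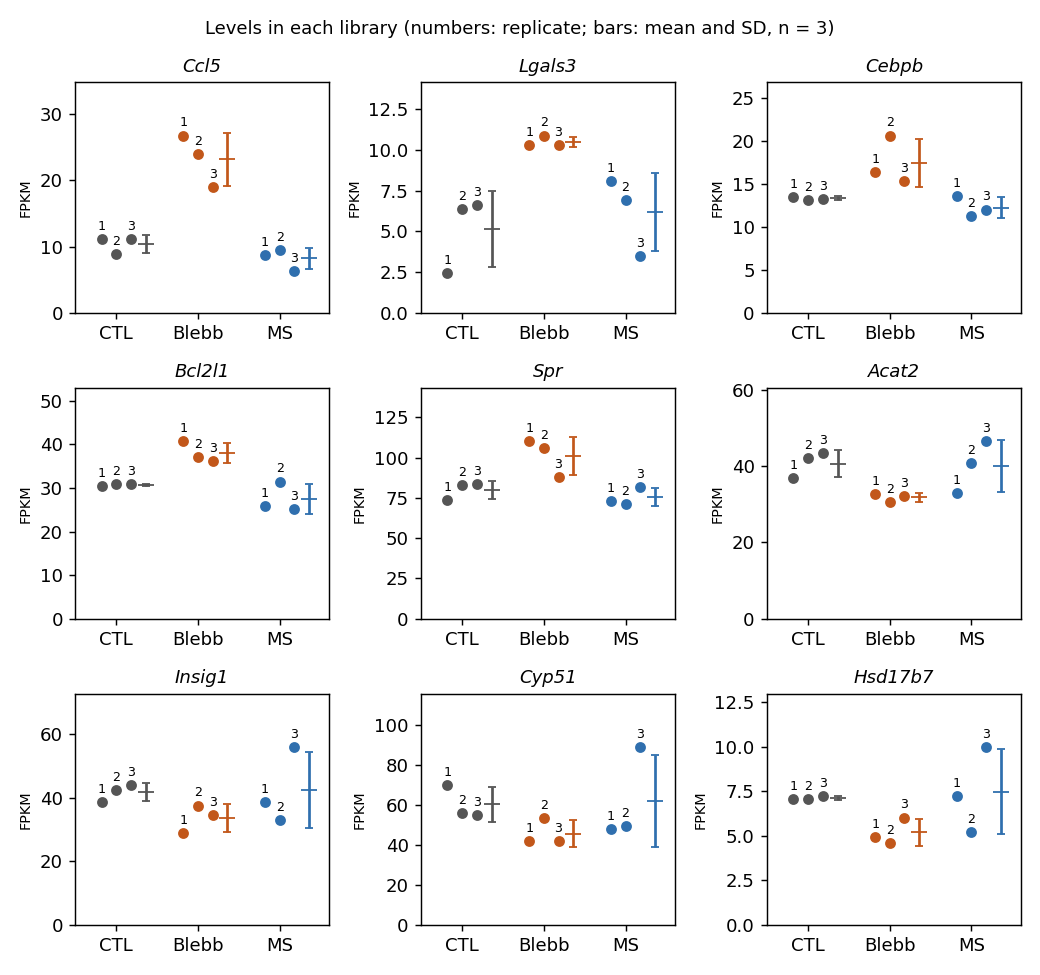
Level in FPKM (vertical axes, from 0) of 9 genes in each library of CTL, Blebb and MS, with the replicate number at each point and the mean and SD of 3 libraries beside it. In Ccl5 the 3 Blebb libraries lie between 19.0 and 26.8 FPKM and the 3 CTL libraries between 8.83 and 11.2 FPKM, and in Insig1, Cyp51, Hsd17b7 and Acat2 all Blebb libraries lie below all CTL libraries.

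Most cholesterol genes had lower values in Blebb than in CTL, without any of them passing the test. Cells make cholesterol from acetyl-CoA through mevalonate, squalene and lanosterol, and the pathway is switched on together by SREBP2 when sterols in the endoplasmic reticulum run low. INSIG1 holds SREBP2 back. Of 22 genes on the list, 21 were tested, and 20 of them had a log2 fold change below 0, with a median of -0.25. Over all genes tested 54.0% were below 0 and the median was -0.01. Genes switched on together are not independent observations, and the list was chosen with earlier results of these data known. No member had an adjusted p under 0.05 in limma, and 0 had an unadjusted p under 0.05. In 4 members all Blebb libraries were below all CTL libraries, against 1.15% of all genes, and Cyp51, Hsd17b7 and Insig1 among them are described here.

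Early in the pathway, Hmgcs1, which joins acetyl-CoA and acetoacetyl-CoA, was at 9.16, 7.63 and 16.1 FPKM in Blebb and at 8.34, 21.1 and 22.3 FPKM in CTL. Its groups overlapped, CTL 1 and Blebb 2 were the lowest library of each, and the log2 fold change was -0.56 (SE 0.43). The same libraries were lowest in Idi1, which isomerizes the isoprene unit. Idi1 was at 3.99, 2.73 and 7.78 FPKM in Blebb and 3.3, 9.65 and 10.6 FPKM in CTL. Its difference of -0.57 (SE 0.44) was the lowest of the list, while Mvk and Pmvk, the mevalonate kinases, were at -0.17 (SE 0.17) and -0.08 (SE 0.13).

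In the sterol part of the pathway, Sqle, which oxidizes squalene, was at 38.6, 49.8 and 39.6 FPKM in Blebb and 61.5, 49.5 and 52.6 FPKM in CTL. Only Blebb 2 reached into the CTL range. Cyp51 (chr5:4081145-4104746, minus strand), which demethylates lanosterol, was at 41.9, 53.2 and 41.7 FPKM against 70.1, 55.7 and 54.7 FPKM, with no overlap and a log2 fold change of -0.39 (SE 0.24). Hsd17b7 (chr1:169949535-169969241, minus strand), a reductase that acts after it, was at 4.93, 4.58 and 6.02 FPKM against 7.06, 7.08 and 7.24 FPKM. Here the 3 CTL libraries were close together and the log2 fold change was -0.40 (SE 0.21). Nsdhl, in the same complex of reactions, was at -0.40 (SE 0.29) with overlap. The late reductase Dhcr7 was at -0.15 (SE 0.26), and Ebp, an isomerase, was the only member not below 0, at 0.01 (SE 0.14).

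Control genes of the pathway also had lower means in Blebb. Insig1 (chr5:28071363-28078662, plus strand) was at 28.8, 37.5 and 34.4 FPKM in Blebb and 38.6, 42.5 and 43.9 FPKM in CTL, with no overlap and a log2 fold change of -0.31 (SE 0.19). Srebf2, which encodes SREBP2, was at -0.11 (SE 0.18), with overlap. Outside the list, Acat2 (chr17:12942890-12960747, minus strand), a cytosolic thiolase that makes acetoacetyl-CoA at the entry of the pathway, was the only lower gene with an unadjusted p under 0.05. It was at 32.8, 30.6 and 32.3 FPKM in Blebb and at 36.8, 42.1 and 43.4 FPKM in CTL, with a log2 fold change of -0.34 (SE 0.14, adjusted p = 1.00 in limma).

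The size of the difference in the cholesterol list varied with the libraries. The summed level was 1073, 1284 and 852 FPKM in Blebb and 1385, 1230 and 1126 FPKM in CTL, so Blebb 2 lay inside the CTL range. Without CTL 1 and Blebb 2 the median was -0.34 and 21 of 21 members were below 0, beside a median of -0.04 over all genes. Between those libraries alone, Blebb 2 minus CTL 1, the median was -0.07 and 17 members were below 0. With a GC trend removed from each library it was -0.26. Without Blebb 3, the library with the lowest sum, the median was -0.10. In MS, which shares the CTL libraries, the list stood at a median of -0.03 against CTL, and its sum ranged from 1023 to 1473 FPKM, wider than both other groups.

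The promoters of these genes are shown because SREBP2 acts on them together with the factor NF-Y, which binds the letters CCAAT. The search covered the 250 bases before each gene's start in RefSeq (GRCm38.p6), for CCAAT and the sterol element TCACNCCAC on both strands. Of the 21 members tested, 15 had a window, and CCAAT or its reverse complement ATTGG was found in 14 of these (93.3%). Among the first windows of 7908 genes tested the share was 37.4%, and it was 33.8% of all 32851 windows. TCACNCCAC was found in 1 of the 15 windows, that of Hmgcs1, and in 1.05% of all windows. A match is a string of letters and was not tested as a site of binding. A pair of members without overlap and the early gene Hmgcs1 are printed 5′ to 3′, with both motifs in capitals and with bases that GENCODE M21 counts as transcribed left out.
Hsd17b7, chr1:169969242-169969455, minus strand: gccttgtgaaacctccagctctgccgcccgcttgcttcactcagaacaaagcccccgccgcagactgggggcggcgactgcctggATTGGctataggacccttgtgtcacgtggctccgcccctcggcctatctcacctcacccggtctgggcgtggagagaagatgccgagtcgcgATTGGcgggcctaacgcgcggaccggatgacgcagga
Insig1, chr5:28071162-28071362, plus strand: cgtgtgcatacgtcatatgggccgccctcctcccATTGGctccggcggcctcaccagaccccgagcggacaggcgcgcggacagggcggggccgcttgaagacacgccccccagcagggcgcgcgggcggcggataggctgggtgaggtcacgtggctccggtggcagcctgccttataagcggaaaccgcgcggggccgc
Hmgcs1, chr13:119690101-119690350, plus strand: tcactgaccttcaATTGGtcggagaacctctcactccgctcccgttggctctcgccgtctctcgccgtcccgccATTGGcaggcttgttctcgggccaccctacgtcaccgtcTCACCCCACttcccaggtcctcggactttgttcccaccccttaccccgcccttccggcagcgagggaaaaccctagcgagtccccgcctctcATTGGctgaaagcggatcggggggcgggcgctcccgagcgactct
CCAAT began 165, 73 and 12 bases before the RefSeq start in Hsd17b7, the last of these in the stretch left out, and 216 bases before it in Insig1. In Hmgcs1 the motif began 237, 176 and 45 bases before the start, and the sterol element began 137 bases before it.

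Genes of the motor that blebbistatin blocks showed no difference larger than the spread between replicates. Myh9, the main heavy chain of non-muscle myosin II in these cells, was at 46.1, 35.3 and 48.5 FPKM in Blebb and at 30.2, 44.7 and 63.0 FPKM in CTL. The groups overlapped and the log2 fold change was -0.04 (SE 0.27). Myh14 was at 1.77, 4.67 and 1.57 FPKM against 5.35, 2.22 and 1.87 FPKM, with CTL 1 and Blebb 2 the highest of each group. Myh10 was at most 0.0289 FPKM in any library and was not tested. Of the 17 tested genes that control myosin, such as RhoA and its kinases, 11 were below 0 and the median was -0.03. Rhob, a small GTPase of the same family, was the highest at 0.27 (SE 0.13), with 33.2, 34.5 and 27.8 FPKM in Blebb and 24.4, 24.9 and 29.3 FPKM in CTL. Rock2, the kinase that activates myosin, was the lowest at -0.31, but its standard error was 0.75.

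Actin and adhesion genes gave medians close to that of all genes. The 16 tested actins, tropomyosins and SRF targets had a median of 0.03. Actb was at 1090, 499 and 915 FPKM in Blebb and 376, 966 and 1010 FPKM in CTL, and CTL 1 and Blebb 2 were again the low libraries. Cnn2, an actin-binding calponin, was the highest of the list at 0.21 (SE 0.15). Of the 20 focal adhesion genes 12 were below 0, with a median of -0.03. Parva, an adaptor that links integrins to actin, did not overlap between the groups, at 24.6, 24.9 and 24.9 FPKM in Blebb and 26.5, 26.3 and 26.4 FPKM in CTL, a difference of only -0.09 (SE 0.13). The integrins Itga6 and Itgb1, which form a laminin receptor, were at -0.39 (SE 0.40) and -0.33 (SE 0.37), and at -0.07 and -0.03 without Blebb 2. Without CTL 1 and Blebb 2 together they were at -0.44 and -0.29. Of 8 integrin subunits 7 were below 0, with a median of -0.06, and 5 were below 0 with median-of-ratios factors or quantile normalization. The median was -0.27 without CTL 1 and -0.16 without CTL 1 and Blebb 2. Collagens, laminins and matrix glycoproteins had 15 of 16 members below 0 and a median of -0.08, but 12 were below 0 with median-of-ratios factors, 10 under quantile normalization and 9 between Blebb 2 and CTL 1 alone. Of these genes Lama4 was lowest at -0.23 (SE 0.24) and the matrix protein Sparc was above 0 at 0.21 (SE 0.24).

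The Hippo pathway was measured through its co-activators, their partners and their targets. Yap1 was at 29.8, 28.9 and 40.3 FPKM in Blebb and 34.1, 33.8 and 38.5 FPKM in CTL, a log2 fold change of -0.11 (SE 0.16). Wwtr1, which encodes TAZ, was at 7.16, 7.01 and 8.09 FPKM against 7.63, 8.23 and 8.49 FPKM. Both overlapped between the groups. Of 18 tested members of the core, 13 were below 0 and the median was -0.12, with the DNA-binding partner Tead1 lowest at -0.35 (SE 0.41). Among 16 tested YAP targets 9 were below 0, with a median of -0.04. The standard targets Ccn1 and Ccn2 were at 0.15 (SE 0.53) and 0.08 (SE 0.39). Ccn1 was at 15.4, 4.28 and 14.5 FPKM in Blebb and 4.33, 10.7 and 14.8 FPKM in CTL, and its lowest libraries were CTL 1 and Blebb 2.

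Genes of the RAS pathway were at a median of -0.09 over 14 members. Nras was at 10.7, 8.69 and 14.6 FPKM in Blebb and 9.11, 13.1 and 16.1 FPKM in CTL, and Braf was at 1.14, 1.35 and 2.11 FPKM against 1.51, 1.82 and 2.37 FPKM. Nf1, which switches RAS off, was at 2.16, 2.55 and 4.4 FPKM against 2.76, 4.6 and 4.75 FPKM. These differences of -0.15 (SE 0.26), -0.20 (SE 0.24) and -0.33 (SE 0.29) were smaller than or close to their standard errors. The genes that ERK signalling induces stood on the other side, with 10 of 12 above 0 and a median of 0.23, against 46.0% above 0 over all genes. The median was 0.08 without CTL 1, 0.48 without Blebb 2 and 0.21 without both. Etv4, an ETS transcription factor of this group, was at 2.61, 0.426 and 3.99 FPKM in Blebb and 0.0741, 1.39 and 1.35 FPKM in CTL. Etv5 was at 5.56, 0.698 and 7.24 FPKM against 0.433, 3.0 and 3.5 FPKM. In both genes Blebb 1 and Blebb 3 were above all CTL libraries while Blebb 2 was not, and the log2 fold changes were 0.70 (SE 0.49) and 0.61 (SE 0.65). Without CTL 1 the differences were 0.32 and 0.09, and without Blebb 2 they were 1.22 and 1.32. Without both libraries they were 0.84 and 0.79, so their size varied with the library left out. Ccnd1, which encodes cyclin D1 and was picked from the list after its values were seen, was at 96.8, 36.3 and 104 FPKM in Blebb and 29.0, 58.1 and 72.8 FPKM in CTL, with the same order of libraries. No member of this list was free of overlap.

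Stretch-sensitive channels were measured in 5 genes, with a median of 0.00. Piezo1, the main stretch-gated cation channel, was at 33.0, 37.6 and 26.0 FPKM in Blebb and 43.0, 28.0 and 29.8 FPKM in CTL, a log2 fold change of -0.05 (SE 0.22). Of 11 SMADs and targets of TGF-beta or BMP, 7 were above 0. Id1, a target of BMP signals, spread from 0.898 to 13.3 FPKM in Blebb and from 0.699 to 6.0 FPKM in CTL, with Blebb 2 and CTL 1 at the low ends.

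Proliferation genes followed the libraries that stood apart more than the groups. Of 51 tested genes of mitosis and G2/M, 46 were below 0, with a median of -0.15. Mki67, the antigen used to count cycling cells, was at 0.776, 0.174 and 3.77 FPKM in Blebb and at 0.107, 3.11 and 4.58 FPKM in CTL. The standard error of its difference of -0.45 was 0.84. The summed G2/M level was 2167, 1095 and 2208 FPKM in Blebb and 1143, 2155 and 2370 FPKM in CTL. The median of this list was -0.14 without CTL 1 and Blebb 2 together, -0.53 without CTL 1 alone and 0.27 without Blebb 2 alone, so its direction turns with 1 library. For DNA replication and S phase, 28 of 43 genes were below 0, with a median of -0.08. It came to -0.51 without CTL 1, to 0.34 without Blebb 2 and to -0.07 without both. Pcna, the sliding clamp of DNA polymerase, was at 260, 111 and 271 FPKM in Blebb and 107, 282 and 262 FPKM in CTL. Fewer cycling cells and less RNA per cell cannot be told apart in bulk samples.

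**Figure D4:**
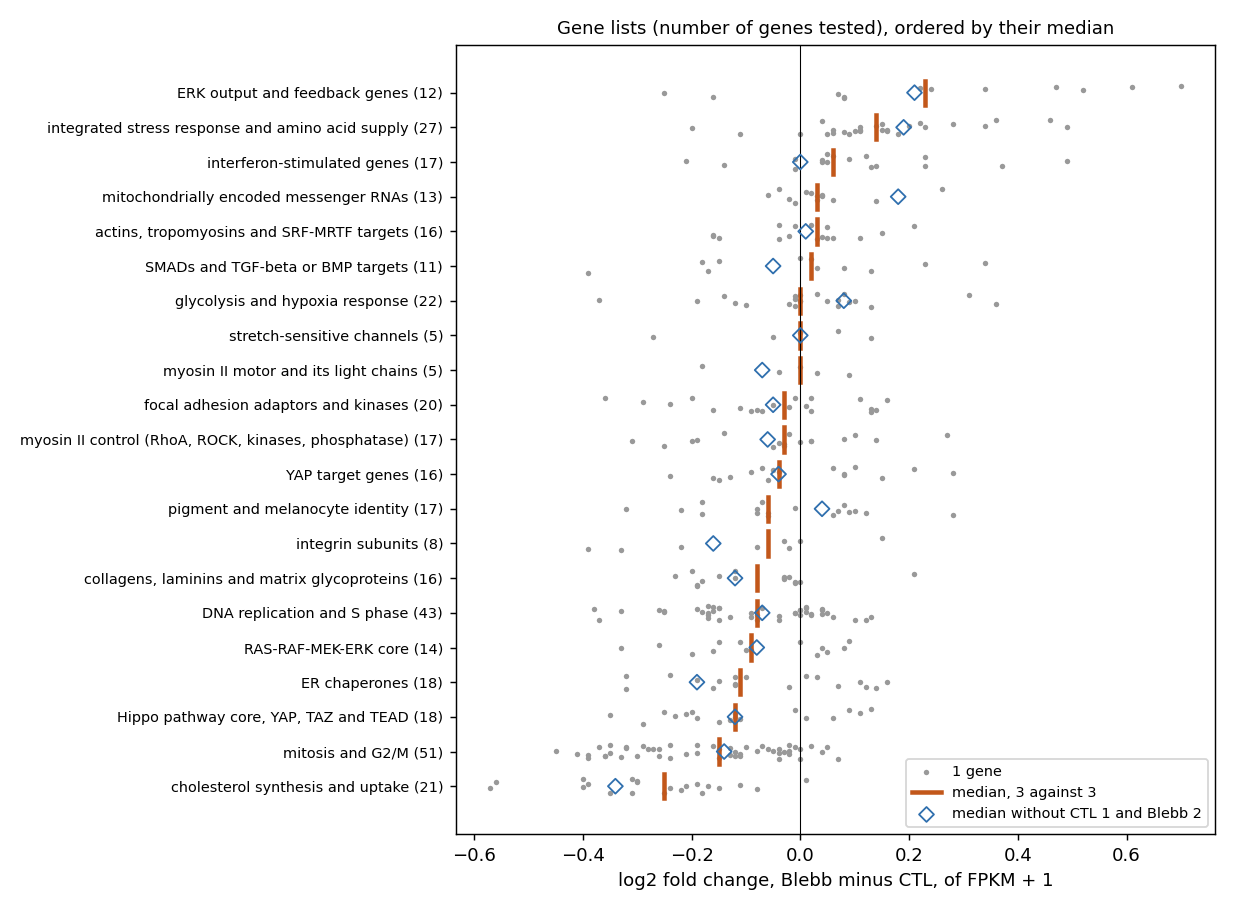
Log2 fold change of FPKM + 1 between Blebb and CTL (horizontal axis) of the tested members of 21 gene lists (rows, number of genes in brackets), with 1 grey point a gene, an orange bar at the median and a blue diamond at the median without CTL 1 and Blebb 2. The cholesterol list has the lowest median, at -0.25, and the ERK output list the highest, at 0.23. The latter was 0.08 without CTL 1 and 0.21 without CTL 1 and Blebb 2.

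Stress and metabolism genes were split in a like way. Of 27 tested genes of the integrated stress response and amino acid supply, 25 were above 0, and the median was 0.14. Over all genes tested 46.0% were above 0. Besides Cebpb, no member was free of overlap. Trib3, a pseudokinase induced by ATF4 and CHOP, was at 41.7, 183 and 23.7 FPKM in Blebb and 153, 21.2 and 19.4 FPKM in CTL. Pycr1, which makes proline, was at 6.48, 15.4 and 4.07 FPKM against 10.9, 3.03 and 4.05 FPKM. In both genes CTL 1 and Blebb 2 were the highest of their groups. The median was 0.50 without CTL 1 and -0.13 without Blebb 2. Without both it was 0.19, with 3 of 27 members below 0. Between Blebb 2 and CTL 1 alone it was -0.03, with 16 members below 0. ER chaperones had 11 of 18 members below 0 and a median of -0.11, which was -0.19 without CTL 1 and Blebb 2, 0.06 without CTL 2 and 0.17 between Blebb 2 and CTL 1 alone. Among them Manf, a secreted protein of the ER, did not overlap, at 79.0, 76.6 and 75.4 FPKM in Blebb and 62.1, 73.0 and 74.0 FPKM in CTL. In contrast, Hsp90b1 spread from 13.1 to 87.4 FPKM in Blebb and from 11.5 to 96.5 FPKM in CTL.

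Glycolysis and hypoxia genes had a median of 0.00 over 22 members. Pfkp, the platelet form of phosphofructokinase, did not overlap, at 42.2, 42.8 and 45.2 FPKM in Blebb and 41.9, 40.3 and 41.8 FPKM in CTL, a difference of 0.07 (SE 0.11). Gapdh was at 0.36 (SE 0.18) with overlap, and at 0.23 without CTL 1 and 0.19 without CTL 1 and Blebb 2. Interferon-stimulated genes had 13 of 17 members above 0 and a median of 0.06, which was 0.00 without CTL 1 and Blebb 2, -0.22 without Blebb 2 alone and 0.33 without Blebb 3. Isg15 was at 8.14, 16.3 and 6.23 FPKM in Blebb and 10.8, 5.16 and 4.65 FPKM in CTL. Pigment genes were at a median of -0.06 over 17 members, which was 0.04 without CTL 1 and Blebb 2. Mitf, the master regulator of the lineage, was at 14.2, 8.51 and 30.7 FPKM in Blebb and 9.5, 27.2 and 28.8 FPKM in CTL, a log2 fold change of -0.32 (SE 0.52). Trpm1, a channel gene that MITF controls, was at 166, 476 and 148 FPKM against 401, 138 and 119 FPKM, with the opposite order of libraries. The mitochondrially encoded messenger RNAs had a median of 0.03 over 13 genes, and their sum ran from 22896 to 52099 FPKM in CTL and from 26824 to 39960 FPKM in Blebb.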

How the data were processed

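RNA of B16 cells was sequenced by the authors in 9 libraries, 3 each of CTL, MS and Blebb, grouped by the treatment label, and 1 table of FPKM per library was deposited. FPKM had been divided by gene length and mapped fragments by the authors, and the program that made it is not given in the sources used here. The submitters' processing notes name GRCm38 and mm10 as builds. The low values shared no common step, so whole reads were not recovered and depth is unknown. No pair of libraries held identical values.

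Genes that averaged 1 FPKM or more across the 9 libraries were transformed as log2(FPKM + 1), which understates changes of low genes, and tested in limma 3.58.1 (R 4.3.3) with lmFit on 3 groups, eBayes with trend, two-sided tests and Benjamini-Hochberg adjustment over 10109 genes at a threshold of 0.05. MS entered for the estimate of spread. The fit was tested on simulated data. Analysis of variance is the test given for the study in general, and whether it was applied to the sequencing data is not said. Named genes were those at an unadjusted p under 0.05, the 8 highest and the 8 lowest without overlap at a mean of at least 5 FPKM, 2 or more from each list and 15 set genes, and cholesterol genes were added from their list. Members and lists were chosen with earlier results of these data known. Some list members are counted but not reported here by name. Lists are described by counts and medians, without a set test. GC content, from the longest GENCODE M21 transcript, was known for 9663 genes (95.6%), and its trend was removed by loess in 1 alternative. Others were a pseudocount of 0.1 FPKM, no minimum or 5 FPKM, assembler-number loci left out, median-of-ratios factors, quantile normalization, no trend, a fit on CTL and Blebb alone, a replicate block, and libraries left out. Promoter sequences are from RefSeq (GRCm38.p6) and gene positions from GENCODE M21.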

Additional observations from a re-analysis of the deposited data

How the results depend on the processing

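Of the results on all genes, the count at an adjusted p under 0.05 was 0 in limma under every alternative, with a smallest adjusted p of 0.377 without a minimum level. The count at an unadjusted p under 0.05 ran from 7 to 183, the latter without a minimum level, and came to 94 without Blebb replicate 3. The genes without overlap that were higher in Blebb numbered 225 without a minimum level (1.37% of 16483 genes). Without CTL 1 and Blebb 2, with or without MS 3, they numbered 525 (5.19% of 10109 genes). They numbered 158 to 758 with 1 library left out (1.56% to 7.5%). Those lower in Blebb numbered 219 without a minimum level (1.33%) and 58 at a minimum mean of 5 FPKM (0.828% of 7004 genes). With the GC trend removed they numbered 200 (2.07% of 9663 genes). They numbered 1204 without CTL 1 and Blebb 2, with or without MS 3 (11.9%), and 166 to 989 with 1 library left out (1.64% to 9.78%). The median of the cholesterol list stayed below 0 throughout, from -0.34 to -0.10. With 1 library left out, the medians of 15 of 21 lists took both signs, among them G2/M (-0.53 to 0.27), S phase (-0.51 to 0.34), the stress response (-0.13 to 0.50), interferon genes (-0.22 to 0.33), mitochondrial messenger RNAs (-0.17 to 0.31), SMADs (-0.22 to 0.21), pigment (-0.20 to 0.13), YAP targets (-0.20 to 0.09), ER chaperones (-0.21 to 0.06) and actins and SRF targets (-0.12 to 0.12). Same-numbered libraries did not deviate together in every pair (r of -0.23, -0.68 and 0.84), and in the fit with a replicate block the count at an adjusted p under 0.05 was again 0. With groups of equal size the block cannot change a fold change, so the cholesterol median of -0.25 was the same by design.

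Apart from single libraries, 1015 of 1026 values of 75 named genes kept their direction. Many of these values could not turn. Other minimum levels, assembler-number loci left out, no trend, the fit on CTL and Blebb alone and the replicate block leave a gene's fold change unchanged. Leaving out MS 3 as well repeats the values without CTL 1 and Blebb 2. The count is therefore no measure of how stable the directions are. Without CTL 1 and Blebb 2 Lrrc8a came to -0.06 and Piezo1 to 0.02, the same without MS 3 as well. Pcna, at 0.00, came to 0.03 with median-of-ratios factors and to 0.07 with the GC trend removed, also with the replicate block added. Removing the GC trend and leaving out CTL 1 and Blebb 2, which was chosen after seeing the data, gave -0.12 for Lrrc8a, -0.02 for Actb, 0.01 for Yap1 and 0.03 for Pcna. With 1 library left out at a time, the log2 fold change turned in 27 genes and ran for Myh14 from -0.54 to 0.17, for Myl12a from -0.02 to 0.19, for Rock2 from -0.96 to 0.13, for Mrtfb from -0.35 to 0.02, for Taok1 from -0.69 to 0.02, for Trpm7 from -0.88 to 0.15 and for Lrrc8a from -0.23 to 0.31. It ran for Id1 from -0.39 to 1.07, for Atad2 from -1.30 to 0.33, for Mki67 from -1.15 to 0.01, for Smc4 from -1.24 to 0.12, for Mitf from -0.80 to 0.09, for Trpm1 from -0.25 to 0.82 and for Trib3 from -0.34 to 1.44. Likewise it ran for Pycr1 from -0.01 to 0.92, for Hsp90b1 from -1.24 to 0.36, for Aldoc from -0.98 to 0.12, for Sparc from -0.01 to 0.43, for mt-Co3 from -0.07 to 0.79, for mt-Nd3 from -0.10 to 0.44 and for Myh9 from -0.30 to 0.22. In the remaining genes it ran for Actb from -0.32 to 0.48, for Ccn1 from -0.30 to 0.68, for Ccn2 from -0.30 to 0.39, for Nras from -0.36 to 0.02, for Piezo1 from -0.16 to 0.14 and for Pcna from -0.45 to 0.41. The cause was not tested. The depth is unknown, so what it limits cannot be given.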

Other observations

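Ribosome genes, chosen after their values were seen, were mostly higher in Blebb than in CTL by small amounts. Of 79 tested proteins of the mitochondrial ribosome, which translates the messenger RNAs of mitochondria, 68 were above 0, with a median log2 fold change of 0.08. In 9 of them all Blebb libraries were above all CTL libraries, beside 0.93% of all genes. Dap3, a protein of its small subunit, was at 34.4, 33.3 and 30.8 FPKM in Blebb and 28.7, 28.0 and 27.8 FPKM in CTL. Mrpl30 was at 122, 114 and 110 FPKM against 93.6, 108 and 97.6 FPKM, and Mrpl22 at 29.7, 29.3 and 29.7 FPKM against 25.5, 26.0 and 25.9 FPKM. The median was 0.06 without CTL 1 and Blebb 2, and 18 of the genes were then below 0. None passed the test in limma (adjusted p = 1.00 for each). In MS, which shares the CTL libraries, the median of this list against CTL was 0.05. Mrpl22 was there at 33.0, 29.5 and 21.7 FPKM and so reached from below to above both groups.

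Of 77 tested proteins of the cytosolic ribosome, 68 were above 0, with a median of 0.07 that was 0.01 under quantile normalization and -0.04 between Blebb 2 and CTL 1 alone. In MS the median of this list against CTL was also 0.07, so the difference was not particular to Blebb. Rpl17 was the lowest, at 159, 42.4 and 254 FPKM in Blebb and 122, 211 and 245 FPKM in CTL, with Blebb 2 the lowest of all 9 libraries. Many ribosomal proteins have processed copies in the genome, so their values are uncertain where reads could be shared.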
